A study of Mus musculus with 6 samples.

Results

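The genes described here are 43 genes of B cell identity and B cell receptor signalling, listed by name, of 27179 genes counted. Of these, 41 passed the filter on low counts, among 12418 genes tested. The 2 others were Cd38, with at most 10 reads in a library, and Tnfrsf17, with at most 3. A20 cells come from a BALB/c mouse B cell lymphoma, and polyadenylated RNA was sequenced in 3 groups of 2 independently repeated samples. Wild-type A20 cells carried no transgene. TETact-v3 cells carried, from lentiviral vectors, dCas9 with SunTag epitopes, an antibody fragment fused to the TET1 catalytic domain (an enzyme domain that oxidises methylated cytosine) and an MCP-p65-hsf1 activator that binds MS2 loops in the sgRNA. They received either a non-targeting control sgRNA or an sgRNA against the Cd4 promoter, and both were collected on day 7 after sgRNA transduction. The paper states that stably transduced cells were enriched by flow sorting, and whether wild-type cells were sorted is not stated. Since wild-type cells were not transduced, effects of vectors, selection and cell growth cannot be told apart from effects of TETact-v3 itself.

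The B cell receptor is a membrane immunoglobulin that signals through the Cd79a and Cd79b chains. Upon engagement the kinases Lyn, Blk and Syk are activated, Blnk assembles Btk and Plcg2, and phosphatases such as Ptpn6 oppose them at the inhibitory co-receptors. B cell identity is maintained by transcription factors that include Pax5, Ebf1, Tcf3, Spi1, Irf8 and Foxo1. Pou2af1 and Pou2f2 act at octamer sequences, and Bcl6 and Bach2 oppose the plasma cell factors Irf4 and Prdm1.

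Most of the genes that changed between wild-type and TETact-v3 cells fell, and the few that rose included an inhibitory receptor and Irf4. The promoters of the genes with the smallest p-values in each direction are shown first. Each is given as the 250 bases before the RefSeq start in GRCm38.p6 on the gene's strand. Neither sgRNA was directed at these promoters, and their methylation was not examined here. Capitals mark CG dinucleotides, in which mammalian DNA is methylated. For Blnk the start lies within an exon of a longer transcript in GENCODE M21, so only 30 bases around its octamer are shown, with that octamer in capitals.
Cd72, rose, minus strand of chr4:43454627-43454876: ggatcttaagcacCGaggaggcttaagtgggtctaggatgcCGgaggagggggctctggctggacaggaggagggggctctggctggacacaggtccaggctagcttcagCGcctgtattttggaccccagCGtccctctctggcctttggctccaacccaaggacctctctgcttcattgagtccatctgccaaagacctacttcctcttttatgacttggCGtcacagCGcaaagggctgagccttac
Irf4, rose, plus strand of chr13:30748983-30749232: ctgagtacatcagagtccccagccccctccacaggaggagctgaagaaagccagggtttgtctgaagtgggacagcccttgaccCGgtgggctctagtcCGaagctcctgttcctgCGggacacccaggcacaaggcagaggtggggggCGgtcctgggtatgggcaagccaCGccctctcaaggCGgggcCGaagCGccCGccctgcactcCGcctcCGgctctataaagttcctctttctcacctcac
Pou2af1, fell, plus strand of chr9:51213440-51213689: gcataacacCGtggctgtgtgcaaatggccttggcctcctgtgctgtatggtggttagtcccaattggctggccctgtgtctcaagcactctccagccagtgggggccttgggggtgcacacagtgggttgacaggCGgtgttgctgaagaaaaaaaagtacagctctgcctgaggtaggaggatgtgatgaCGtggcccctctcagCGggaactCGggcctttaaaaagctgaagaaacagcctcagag
Bcl6, fell, minus strand of chr16:23988853-23989102, the first of 2 listed starts: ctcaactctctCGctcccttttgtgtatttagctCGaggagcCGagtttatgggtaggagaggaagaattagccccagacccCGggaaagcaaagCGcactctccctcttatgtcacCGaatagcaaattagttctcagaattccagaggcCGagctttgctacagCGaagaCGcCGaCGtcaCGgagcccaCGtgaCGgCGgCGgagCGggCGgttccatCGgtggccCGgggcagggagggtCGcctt
Blnk, fell, minus strand of chr19:40994333-40994362: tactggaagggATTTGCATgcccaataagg

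RefSeq promoters were at hand for 34 of the 43 genes, each taken at its first listed start. These windows held from 1 to 44 CG dinucleotides, with a median of 7, against a median of 6 over 27025 genes with a promoter entry and 16 over the 9692 tested genes with one. Of the genes shown, Bcl6 had 21 CG dinucleotides and Irf4 11, while Cd72 and Blnk had 6 each and Pou2af1 5. The octamer ATGCAAAT, searched on both strands, occurred in 2 of the 34 windows (5.88%), those of Blnk and Vpreb3, against 1.61% of all promoters. A match describes letters only and shows no binding.

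Facts of the whole series bear on every comparison. Total counts ran from 23194920 to 49778949 in wild-type, from 92285875 to 121623410 in control sgRNA and from 35316997 to 48466039 in Cd4 sgRNA libraries, and 3 reads, the floor used here, were at most 0.140 CPM (counts scaled to the TMM-normalised library size). Cd4 counts were 30959 and 40422 in the Cd4 sgRNA libraries and between 17 and 127 in the others, which checks the Cd4 sgRNA labels only. Wild-type, at 0.796 and 0.794 CPM, and control sgRNA, at 1.14 and 1.53, were not called different in Cd4 by edgeR (adjusted p = 0.063). The control sgRNA replicates differed more from each other than the replicates of the other groups, with a chi-square of 243 per degree of freedom against 7.99 in wild-type and 6.90 in Cd4 sgRNA cells. This chi-square also grows with depth, and the control sgRNA libraries were the deepest. Between the control sgRNA replicates 8 of the 41 genes differed by over 1.5-fold, and between those of either other group 0 did. Over all 12418 genes tested, 1967 did so in control sgRNA, 362 in wild-type and 307 in Cd4 sgRNA cells. Mitochondrial genes took 2.65% to 2.69% of the counts in wild-type, 6.63% and 11.5% in control sgRNA and 5.96% to 6.90% in Cd4 sgRNA libraries. This share moved with the groups, and its part in the results was not tested.

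The line was checked against markers of other cells. Cd4, which the Cd4 sgRNA activates, was not among the 12 T cell markers used. Transcripts of these markers were close to absent, with Cd3e and Cd8b1 at 0 in all 6 libraries. The 12 markers summed to 0.775 to 0.887 CPM in wild-type, 1.05 to 1.64 in control sgRNA and 1.04 to 1.13 in Cd4 sgRNA cells. Ncr1 and Eomes of NK cells, Cebpa and Cd14 of myeloid cells, and Kit and Cd34 of progenitors were also at 0 in every library. The 4 NK markers summed to 0.839 to 0.887 CPM in wild-type, 0.279 to 0.754 in control sgRNA and 0.122 to 0.158 in Cd4 sgRNA cells, and the 10 myeloid markers to 4.43 to 4.48, 1.87 to 7.06 and 2.44 to 3.14 CPM. The 5 progenitor markers, of which only Flt3 was tested, summed to 47.9 to 49.6, 33.9 to 78.9 and 28.2 to 31.7 CPM. None of the T cell (2), NK (1), myeloid (3) and progenitor (1) markers that could be tested passed the test against wild-type. The erythroid list was different, with a sum of 24.2 to 24.8 CPM in wild-type and 2.84 to 5.34 in the 4 TETact-v3 libraries. Of its 4 tested genes 2 fell, the beta-globin gene Hbb-bs by 3.72 (adjusted p = 0.0013) and the alpha-globin gene Hba-a1 by 1.12 (adjusted p = 0.046) on the log2 scale, with Gata1 at most 9 reads. The part of these transcripts in the results below was not tested. Among B cell genes, Cd79a, Cd79b, Ms4a1 and Pax5 were present in every library, and the heavy chain genes Ighm and Ighd had 0 reads throughout.

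Between genes, levels were compared per length, as RPKM (CPM per kilobase of exon). In wild-type cells the highest of the 43 were the octamer coactivator Pou2af1 at 1046 RPKM, Cd79b at 548 and the immunoglobulin joining chain gene Jchain at 469, all above the 98th percentile of tested genes. Cd79a stood at 340, Ms4a1 at 171, Blnk at 160 and Pax5 at 62.6 RPKM. Bach2 at 1.44 and Prdm1 at 0.757 RPKM were the lowest of the 41 tested. In Cd4 sgRNA cells Pou2af1 was still the highest at 545 RPKM, while Jchain, at 320, stood above Cd79b at 297.

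The first question was how B cell genes in TETact-v3 cells, with either sgRNA, compare with those in wild-type A20. The 4 TETact-v3 libraries were set against the 2 wild-type libraries as the mean of the 2 sgRNA groups. Of the 41 genes tested, 16 fell and 5 rose in edgeR's quasi-likelihood test at an adjusted p under 0.05, and 20 did not pass. Over all genes tested, 14.6% were called lower and 13.8% higher, so that the share of these genes called lower, 39.0%, was above the background and the share called higher, 12.2%, was near it. The median log2 fold change over the 41 genes was -0.32, against 0.0028 over all genes. The genes were chosen with earlier results of these data known, so these shares describe the list only. In 20 of the 41 all 4 TETact-v3 libraries lay below both wild-type libraries, and in 7 all lay above, against 25.9% and 25.2% of all genes. In bulk RNA, fewer cells that express a gene and less RNA per cell cannot be told apart.

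**Figure D1:**
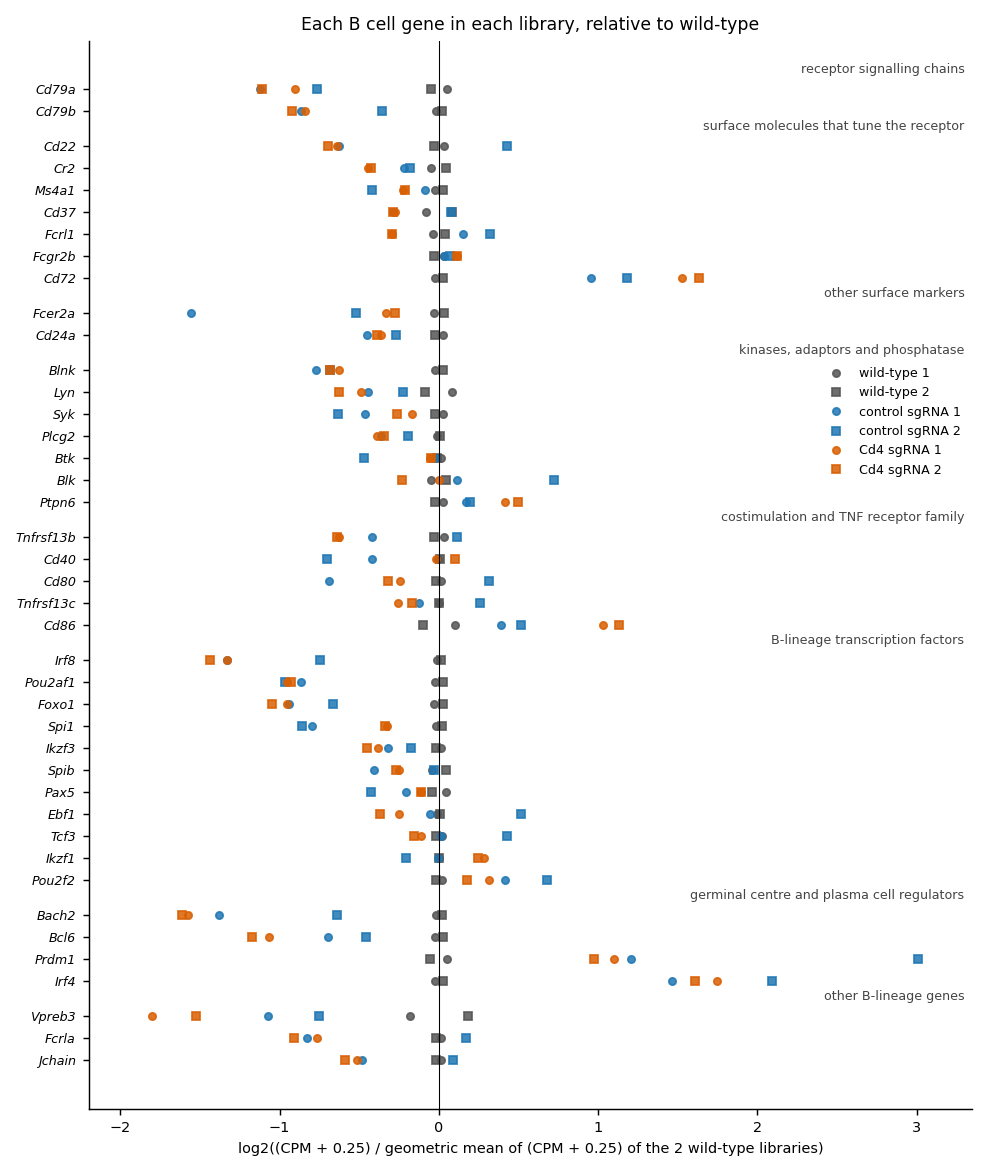
Log2 ratio of each of the 41 tested B cell genes (rows, grouped by role) in each library to the mean of the wild-type libraries, as log2 of CPM plus a pseudocount of 0.25 (x axis). Colours mark the groups and symbols the replicates. In 20 genes all 4 TETact-v3 points lie left of both wild-type points, in 7 they lie right of them, and Prdm1 in control sgRNA replicate 2 lies furthest right.

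These counts depended on single libraries. Without wild-type replicate 1 only 1 gene was called higher and 1 lower, and without wild-type replicate 2 there were 2 and 4. Without Cd4 sgRNA replicate 1 there were 3 and 9, and without replicate 2 there were 2 and 8. Without control sgRNA replicate 1 the counts were 9 and 25, and without replicate 2 they were 7 and 29, since the spread between the control replicates then no longer entered the fit. Calls over all genes moved with these, to 32.1% higher and 30.3% lower without control sgRNA replicate 1 and 32.5% and 31.8% without replicate 2, and to at most 4.72% higher and 4.94% lower without any of the other 4 libraries. Across these 6 omissions all 21 called genes kept their direction, and only Cd72 and Pou2af1 kept their call in every one, at adjusted p of at most 0.042 and 0.046.

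Both signalling chains of the receptor fell. Cd79a (chr7:24897497-24901858), which carries an activation motif in its tail, stood at 467 and 436 CPM in wild-type, 207 and 265 in control sgRNA and 241 and 209 in Cd4 sgRNA libraries. All 4 TETact-v3 libraries were below both wild-type libraries and the sgRNA groups overlapped, with a level 1.96-fold lower (log2 fold change -0.97, SE 0.12, adjusted p = 0.0039). Its partner Cd79b (chr11:106311341-106314562) stood at 647 and 666, 360 and 513, and 367 and 346 CPM in the same order. The TETact-v3 libraries again did not overlap with wild-type, while the sgRNA groups overlapped. Control sgRNA replicate 2 lay nearer to wild-type than the other 3, and the level was 1.66-fold lower (SE 0.14, adjusted p = 0.014). The call for Cd79a was lost without wild-type replicate 1 (adjusted p = 0.078), and that for Cd79b without either wild-type library (0.14 and 0.12) or either Cd4 sgRNA library (0.058 and 0.068).

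**Figure D2:**
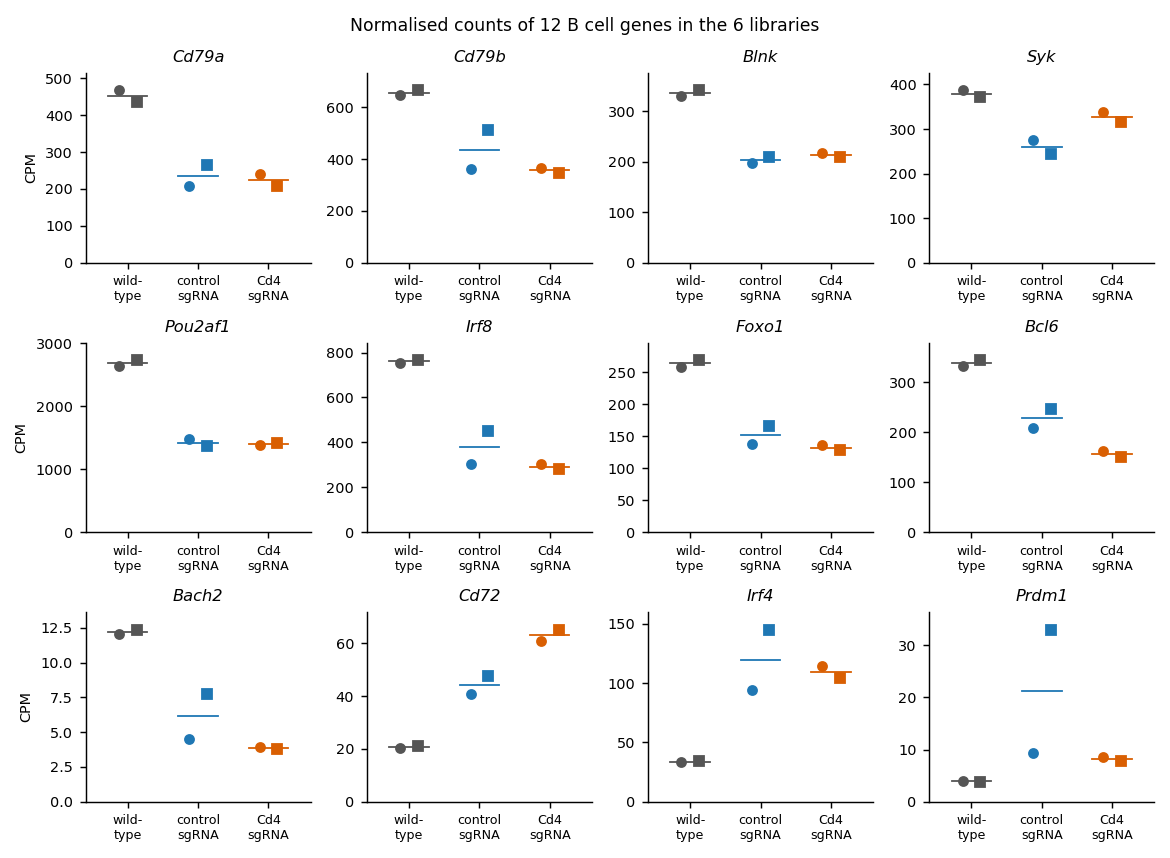
Normalised counts (CPM, y axes from 0) of 12 of the genes in wild-type, control sgRNA and Cd4 sgRNA cells. Circles are replicate 1, squares replicate 2 and lines the mean of the 2. The first 9 genes are lower in all 4 TETact-v3 libraries, and Cd72, Irf4 and Prdm1 are higher in all 4, with control sgRNA replicate 2 at 33.0 CPM for Prdm1 against 9.29 in replicate 1.

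Of 7 surface molecules that tune the receptor, 1 rose and 1 fell. Cd72, an inhibitory receptor that recruits Ptpn6, stood at 20.5 and 21.2 CPM in wild-type, 40.7 and 47.7 in control sgRNA and 60.7 and 65.2 in Cd4 sgRNA cells. No 2 groups overlapped, and it was 2.53-fold higher in TETact-v3 cells (SE of the log2 fold change 0.10, adjusted p = 0.0010). Its span overlaps that of Tesk1 on the other strand, which stood at 35.5, 28.2 and 28.6 CPM in the 3 groups, and whether counting used strand is not stated. Cr2, the complement receptor of B cells, stood at 34.0 and 36.3, 30.2 and 31.0, and 25.7 and 26.2 CPM and was 1.25-fold lower (adjusted p = 0.030), a call that was lost without either wild-type or either Cd4 sgRNA library (0.13 to 0.29). Ms4a1, which encodes CD20, stood at 345 and 359, 332 and 263, and 301 and 304 CPM. All TETact-v3 libraries were lower, but the difference did not pass the test (log2 fold change -0.23, 95% interval -0.49 to 0.03, adjusted p = 0.15). Without control sgRNA replicate 1 (3.6e-06) or replicate 2 (0.0060) it was called lower. The inhibitory receptors Cd22 and Fcgr2b, the tetraspanin Cd37 and Fcrl1 did not pass either, with log2 fold changes from -0.34 to 0.08. Cd22 was at 177 CPM in control sgRNA replicate 2 and at 80.8 to 85.2 in the other 3 TETact-v3 libraries, against 129 to 134 in wild-type, so that the groups overlapped.

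Among other surface markers Cd24a, a glycoprotein of immature and activated B cells, was 1.29-fold lower (adjusted p = 0.021), at 554 and 535 CPM in wild-type, 397 and 452 in control sgRNA and 423 and 415 in Cd4 sgRNA libraries. The wild-type and TETact-v3 libraries did not overlap, and the call was lost without either wild-type or either Cd4 sgRNA library (0.094 to 0.24). Fcer2a (CD23) was at 7.25 and 7.57 CPM in wild-type and 2.35 to 6.08 in TETact-v3 cells, with a log2 fold change of -0.66 that did not pass (adjusted p = 0.16), and its span overlaps that of Trappc5.

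In the signalling cascade, 4 of 7 genes fell and the phosphatase rose. The adaptor Blnk stood at 330 and 341 CPM in wild-type, 196 and 208 in control sgRNA and 217 and 209 in Cd4 sgRNA cells. All 4 TETact-v3 libraries lay in a narrow range below wild-type, 1.62-fold lower (SE 0.07, adjusted p = 0.0022). The promoter-proximal octamer printed above is that of this gene. Syk, the kinase recruited to the Cd79 chains, was 1.30-fold lower (adjusted p = 0.018), at 387 and 372, 274 and 244, and 337 and 316 CPM, with the control sgRNA libraries lowest. Lyn, which phosphorylates those chains, was 1.37-fold lower (adjusted p = 0.022), at 73.0 and 64.9, 50.5 and 58.9, and 49.1 and 44.5 CPM. The groups did not overlap for either kinase. Plcg2, the phospholipase that produces the calcium signal, stood at 650 and 659, 508 and 573, and 501 and 516 CPM and was 1.25-fold lower (adjusted p = 0.030).

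Ptpn6, the SHP-1 phosphatase that dampens the receptor, stood at 437 and 421 CPM in wild-type, 483 and 491 in control sgRNA and 573 and 606 in Cd4 sgRNA libraries. The 3 groups were separate, and it was 1.25-fold higher (SE 0.07, adjusted p = 0.022). Btk, the kinase that activates Plcg2, stood at 113 and 111, 110 and 80.8, and 108 and 108 CPM and did not pass (log2 fold change -0.14, interval -0.45 to 0.17, adjusted p = 0.44). All its TETact-v3 values were below wild-type, and control sgRNA replicate 2 was well below the rest, yet Btk was called lower without control sgRNA replicate 1 (0.00016). Blk did not pass (log2 fold change 0.17, adjusted p = 0.54). Calls for Syk, Lyn, Plcg2 and Ptpn6 were lost without either wild-type or either Cd4 sgRNA library, at adjusted p between 0.072 and 0.26, and that for Blnk without either wild-type library (0.063 and 0.053).

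Of the co-stimulatory and TNF receptor family genes, 1 of 5 tested passed. Cd86, a ligand for CD28 on T cells, stood at 7.62 and 6.59 CPM in wild-type, 9.36 and 10.2 in control sgRNA and 14.7 and 15.8 in Cd4 sgRNA cells. It was 1.7-fold higher (SE 0.13, adjusted p = 0.0085) with the 3 groups separate, a call lost without either wild-type library (0.096 and 0.095) or Cd4 sgRNA replicate 2 (0.054). Its relative Cd80 did not pass, at log2 fold change -0.20 (interval -0.89 to 0.48). Cd40, the receptor for T cell help, and the BAFF and APRIL receptors Tnfrsf13b and Tnfrsf13c did not pass, with log2 fold changes from -0.39 to -0.07. The span of Tnfrsf13b overlaps that of Usp22. Cd40 is described with the single sgRNA groups below.

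Of the 11 B-lineage transcription factors 5 fell, 1 rose and 5 did not pass. Pou2af1, the coactivator of octamer factors and the most abundant of the genes, stood at 2636 and 2732 CPM in wild-type, 1472 and 1372 in control sgRNA and 1386 and 1410 in Cd4 sgRNA cells. The 4 TETact-v3 libraries were close to each other and 1.90-fold below wild-type (SE 0.07, adjusted p = 0.0011). Irf8, which with Spi1 controls B cell and germinal centre genes, stood at 754 and 767, 302 and 453, and 303 and 281 CPM. It was 2.29-fold lower (SE 0.16, adjusted p = 0.0044), the lowest ratio of these factors, with control sgRNA replicate 2 nearest to wild-type. Foxo1, which is needed for Rag gene expression and for germinal centre dark zone cells, stood at 259 and 269, 137 and 166, and 136 and 128 CPM and was 1.87-fold lower (SE 0.10, adjusted p = 0.0025). Spi1 (PU.1) was 1.5-fold lower (SE 0.07, adjusted p = 0.0030), at 135 and 138 CPM, then 78.7 and 75.4 with the control sgRNA and 109 and 108 with the Cd4 sgRNA, so that the 3 groups were separate and the control sgRNA cells lowest. Ikzf3 (Aiolos) was 1.26-fold lower (adjusted p = 0.024), at 639 and 625, 507 and 559, and 484 and 462 CPM.

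Pou2f2 (Oct-2), the octamer factor that Pou2af1 binds, moved in the other direction. It stood at 81.8 and 79.6 CPM in wild-type, 108 and 129 in control sgRNA and 100 and 91.4 in Cd4 sgRNA libraries, without overlap with wild-type and 1.32-fold higher (SE 0.10, adjusted p = 0.031). The call for Pou2f2, made on the adjusted p, was lost without either wild-type or either Cd4 sgRNA library. Over 15 alternative fits its log2 fold change ran from 0.33 to 0.49. Pax5, the factor that commits cells to the B lineage, stood at 78.0 and 73.2, 65.4 and 56.1, and 69.8 and 69.8 CPM, lower in all 4 TETact-v3 libraries but not past the test (log2 fold change -0.22, SE 0.09, adjusted p = 0.12). It was called lower without control sgRNA replicate 1 (0.00022) or replicate 2 (0.0093). Ebf1, its partner in early commitment, stood at 18 and 18.2, 17.4 and 25.9, and 15.2 and 14.0 CPM. The groups overlapped, and the log2 fold change was -0.03 (interval -0.46 to 0.41, adjusted p = 0.92) with a sign that turned under library size scaling alone (0.01) and without any of 3 single libraries. Without control sgRNA replicate 2 it was called lower (-0.18, adjusted p = 0.038). Tcf3 (E2A), Ikzf1 (Ikaros) and Spib did not pass, at 0.05, 0.08 and -0.23. The calls for Irf8 and Spi1 were lost without either wild-type library (0.059 to 0.080), that for Foxo1 without wild-type replicate 1 (0.059), and that for Ikzf3 without either wild-type or either Cd4 sgRNA library (0.098 to 0.26).

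The 4 regulators of the germinal centre and plasma cell states moved apart from each other. Bcl6, the repressor that defines germinal centre B cells, stood at 333 and 344 CPM in wild-type, 209 and 246 in control sgRNA and 161 and 150 in Cd4 sgRNA cells. The 3 groups were separate and the level was 1.8-fold lower (SE 0.09, adjusted p = 0.0024). Bach2, a repressor of Prdm1, stood at 12.1 and 12.4, 4.53 and 7.75, and 3.94 and 3.82 CPM and was 2.51-fold lower (SE 0.23, adjusted p = 0.010), also with no overlap. Irf4, which is required for plasma cells, stood at 33.3 and 34.5 CPM in wild-type, 93.9 and 145 in control sgRNA and 114 and 104 in Cd4 sgRNA cells. It was 3.37-fold higher (SE 0.19, adjusted p = 0.0027), and every TETact-v3 library was above both wild-type ones.

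Prdm1 (Blimp-1), the repressor that ends the B cell programme, was at 4.05 and 3.74 CPM in wild-type, 9.29 and 33.0 in control sgRNA and 8.61 and 7.88 in Cd4 sgRNA libraries. All 4 were above wild-type, yet the control sgRNA replicates differed more than the groups did, and the test was not passed (log2 fold change 1.74, SE 0.60, adjusted p = 0.075). The calls for Bcl6 and Irf4 were lost without wild-type replicate 1 (0.059 and 0.063), and that for Bach2 without either wild-type library (0.12 and 0.089) or Cd4 sgRNA replicate 2 (0.054). Of the remaining B-lineage genes Vpreb3, a partner of immature receptor chains, was 2.54-fold lower (SE 0.20, adjusted p = 0.0069), at 5.49 and 7.15, 2.84 and 3.61, and 1.62 and 2.01 CPM with no overlap, a call lost without either wild-type library (0.072 and 0.078). Its window held 1 CG dinucleotide and the second octamer found. Fcrla and Jchain did not pass, at log2 fold changes of -0.54 and -0.36, and both were near wild-type in control sgRNA replicate 2.

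**Figure D3:**
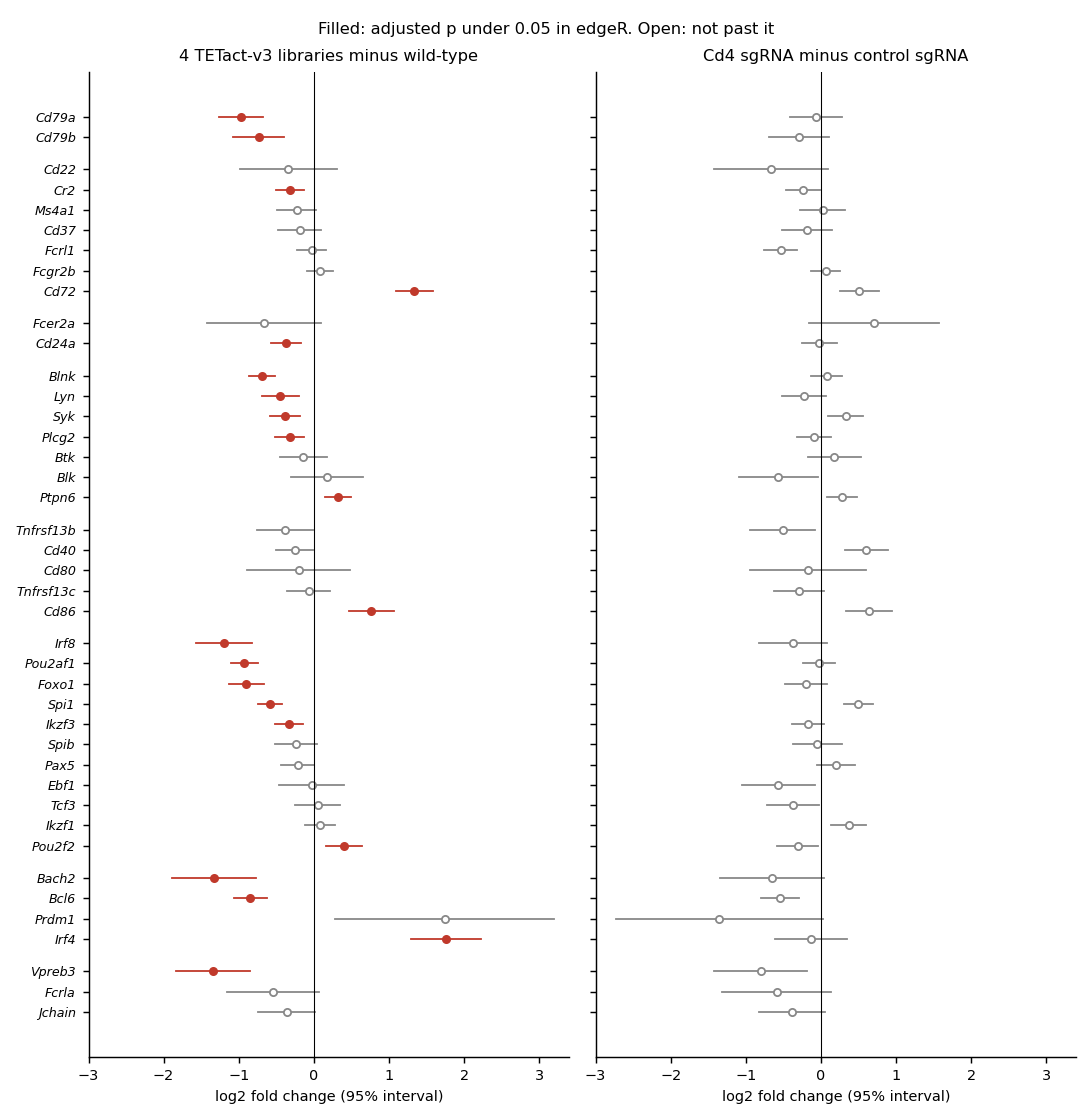
Log2 fold change with 95% interval (x axes) for the 41 genes, in the same order as the plot of ratios. The left panel compares the 4 TETact-v3 libraries with wild-type and the right panel Cd4 sgRNA with control sgRNA cells. Filled red points passed an adjusted p of 0.05 in edgeR, 21 on the left and 0 on the right.

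Each sgRNA group was also set against wild-type alone. Both comparisons use the same 2 wild-type libraries and are therefore not independent. With the control sgRNA 13 genes fell and 4 rose, against 13.5% and 14.5% of all genes. With the Cd4 sgRNA 15 fell and 4 rose, against 10.7% and 9.85%. The median log2 fold changes over the 41 genes were -0.23 and -0.31, and the first was -0.41 without control sgRNA replicate 2. The counts of genes that fell depended on single libraries. Few or none were called without either wild-type library, fewer without either Cd4 sgRNA library and more without either control sgRNA library. Shares of all genes called moved the same way, so these swings were not particular to the B cell genes. The counts of genes that rose varied as well. Over these omissions and other scaling, the medians ran from -0.41 to -0.15 with the control sgRNA and from -0.33 to -0.27 with the Cd4 sgRNA.

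Genes called lower with both sgRNAs were Cd79a (log2 fold change -0.94 with the control and -1.01 with the Cd4 sgRNA), Cd79b (-0.59 and -0.88), Cd24a (-0.36 and -0.38), Blnk (-0.73 and -0.66), Spi1 (-0.83 and -0.33), Pou2af1 (-0.92 and -0.94), Foxo1 (-0.80 and -1.0), Irf8 (-1.01 and -1.38), Bach2 (-1.0 and -1.65), Bcl6 (-0.57 and -1.12) and Vpreb3 (-0.94 and -1.75). Cd72 (1.08 and 1.59) and Irf4 (1.82 and 1.69) were called higher with both. Cd40 was called lower with the control sgRNA only, at 40.1 and 33.0 CPM against 53.5 and 54.1 in wild-type (log2 fold change -0.56, SE 0.12, adjusted p = 0.020), while the Cd4 sgRNA cells, at 53.2 and 57.7, lay around wild-type (0.04, adjusted p = 0.81). The call for Cd40 with the control sgRNA was lost without either wild-type library (0.16 and 0.15), without either Cd4 sgRNA library (both 0.062) and with only the groups compared (0.060). The difference between the sgRNAs itself was 0.60 and did not pass (adjusted p = 0.11). The 4 genes that rose with the control sgRNA were Cd72, Pou2f2 (0.55), Irf4 and Prdm1, and Prdm1 had a log2 fold change of 2.42 (SE 0.63, adjusted p = 0.036) that was 1.24 without replicate 2, and its call was lost with limma (0.14), with only the groups compared (0.072) and without either wild-type (0.20 and 0.16) or either Cd4 sgRNA library (both 0.074). With the Cd4 sgRNA they were Cd72, Ptpn6 (0.46), Cd86 (1.09) and Irf4.

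The next question was whether targeting Cd4 changed B cell genes beyond the non-targeting sgRNA. Of the 41 genes 0 were called in either direction by edgeR between both sgRNAs, where 0.0483% of all genes were called lower and 0.0242% higher. At an unadjusted p under 0.05 there were 16 of 41 (39.0%), against 24.9% of all genes. The voomLmFit test of limma called 0. DESeq2 called 7 higher and 3 lower, where it called 4.33% of all genes higher and 7.16% lower. The smallest adjusted p was 0.10, for Spi1, at a log2 fold change of 0.50 (SE 0.08), and for Fcrl1, at -0.54 (SE 0.09). Bcl6 (-0.55), Cd40 (0.60), Cd86 (0.64) and Cd72 (0.51) followed, at adjusted p of 0.11 to 0.12. For Pou2af1 the difference was -0.03, for Cd79a -0.07 and for Blnk 0.07, and 33 of the 41 intervals lay within 1 log2 unit on either side of 0. Missing the threshold does not show that the sgRNA groups were alike. Without control sgRNA replicate 1 the counts were 10 higher and 26 lower, and without replicate 2 they were 10 and 6, in fits where a lone control library is assumed to vary like the other groups. Those fits called 30.4% of all genes higher and 30.9% lower without replicate 1, and 12.1% and 12.8% without replicate 2.

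Other genes of the receptor pathway and of B cell states were listed by name as well. Of 75 tested among 88 listed, 29 fell and 15 rose in the 4 TETact-v3 libraries against wild-type. Both shares, 38.7% and 20%, were above those of all genes given above. The median log2 fold change was -0.23. These lists were chosen with earlier results of these data known, so the shares describe the lists and test nothing about the pathway. Calls over all genes depended on single libraries, as described above. How the calls of the pathway genes below moved over those omissions is not reported here.

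In the list of receptor chains and co-receptor all 3 genes that could be tested fell. The tetraspanin Cd81 went from 141 and 134 CPM to 54.5 to 95.1 (log2 fold change -0.98, adjusted p = 0.0027), and the kappa constant gene Igkc from 645 and 621 to 215 to 306 (-1.37, adjusted p = 0.0022). Neither overlapped with wild-type. Among 26 genes of downstream signalling 6 fell (23.1%) and 8 rose (30.8%), against 14.6% and 13.8% of all genes. The adaptor Lat2 (-0.96), the protein kinase Prkcb (-1.13) and the adaptor Gab1, at 0.667 and 0.374 CPM in wild-type and 0.054 to 0.124 in TETact-v3 cells, fell. The calcium channels Itpr1 (0.62) and Itpr3 (0.58) and the Ras activator Sos1 (0.56) rose. Of 12 negative regulators 6 fell (50%) and 0 rose. The inhibitory lectin Siglecg (-1.45), the Lyn-inhibiting kinase Csk (-0.51) and the lipid phosphatase Inpp5d (SHIP-1, -0.52) had the smallest p-values.

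**Figure D4:**
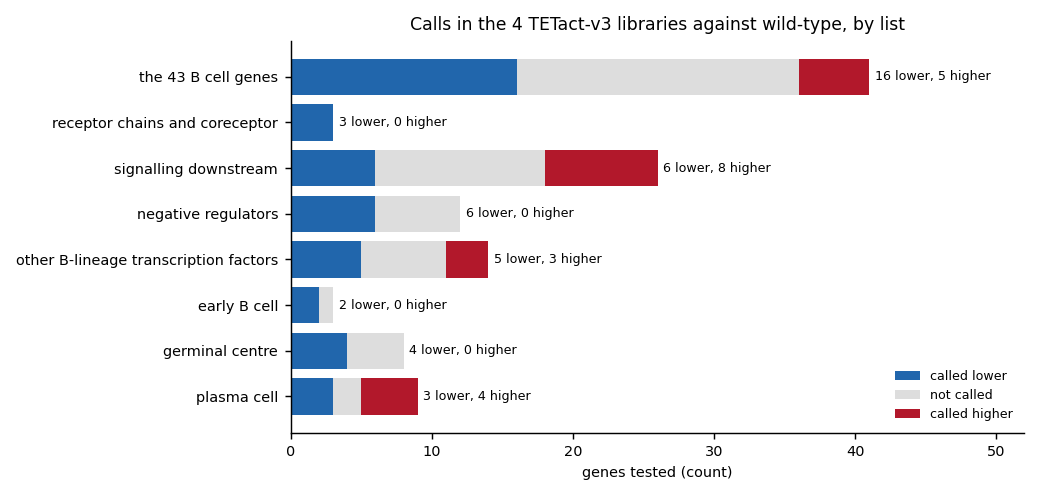
Number of genes tested (x axis) in each list that were called lower, not called or called higher in the 4 TETact-v3 libraries against wild-type. The bar of the 43 B cell genes holds the 41 tested. More genes were called lower than higher in it and in the receptor chain, negative regulator, early B cell and germinal centre lists. The other B-lineage transcription factors also did so (5 lower, 3 higher). Downstream signalling (8 higher, 6 lower) and plasma cell genes (4 higher, 3 lower) did not. Over all genes tested, 14.6% were called lower and 13.8% higher.

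Among 14 other B-lineage transcription factors 5 fell (35.7%) and 3 rose (21.4%), against 14.6% and 13.8% of all genes. Tcf12 (-0.54), Foxp1 (-1.13) and the E protein inhibitor Id3 (-2.06) fell, and Runx3 (0.81), Myb (0.47) and Bcl11a (0.43) rose. Of 3 tested early B cell genes 2 fell, and both were recombinase genes. Rag1 went from 10.2 and 9.71 CPM in wild-type to 0.126 and 0.136 in control sgRNA and 0.153 and 0.158 in Cd4 sgRNA libraries (log2 fold change -6.11, SE 0.19, adjusted p = 6.1e-05), and Rag2 from 9.04 and 10.4 to between 1.19 and 2.05 (-2.71, SE 0.17). These were the largest decreases among the listed pathway genes. The other 8 early genes had at most 6 reads in a library. Of 8 germinal centre genes 4 fell (50%) and 0 rose. Among those that fell were Mef2b (-0.78), S1pr2 (-1.04) and Nuggc (-0.70), the last 2 with control sgRNA replicate 2 nearest to wild-type. Of 9 plasma cell genes 4 rose (44.4%) and 3 fell (33.3%). Derl3 (1.76), the transcription factor Creb3l2 (3.27) and the surface proteoglycan Sdc1 (0.83) rose, whereas Xbp1 (-0.55), Slamf7 (-0.52) and Mzb1 (-0.34) fell, so the list did not move one way.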

How the data were processed

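Counts were analysed for 6 libraries in 3 groups of 2, grouped and numbered by their labels. The authors aligned 66 bp paired-end reads to mm10 (GRCm38) and counted them per Entrez gene with Rsubread and featureCounts, and deposited raw whole-number counts without normalisation. Strand use and the treatment of shared reads are not stated there. The series-wide table holds these counts again and was left out. RefSeq annotation of GRCm38.p6 gave symbols and positions (25275 of 27179 identifiers matched). Genes without a unique symbol, low genes (filterByExpr) and mitochondrial and ribosomal RNA genes were removed, libraries scaled by TMM, and 12418 genes fitted with edgeR 4.0.16 (glmQLFit, glmQLFTest, robust), 1 term per group, over all libraries. The 4 two-sided comparisons used Benjamini-Hochberg adjustment over all genes at 0.05. CPM and RPKM (exon length of the deposited tables) were computed here. Standard errors are the log2 fold change over the square root of F.

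The 43 genes, the other lists and the tests were chosen with earlier results of these data known. Named individually were genes past the threshold in TETact-v3 against wild-type or in Cd4 sgRNA against control sgRNA cells, 10 genes of the receptor and lineage core, up to 3 genes a direction from each pathway or marker list by smallest p, and Cd4. Some genes that this rule names are not reported here. Cd40 and Prdm1, the genes close to the threshold between the sgRNAs, Cd22, Fcer2a and the rest were picked for description after their values were seen. Alternatives were limma 3.58.1 (voomLmFit), DESeq2 1.42.0, RLE factors, library size only, other low-count filters, no annotation filter, only the groups compared, a replicate block and each library left out, and, chosen after seeing the data, edgeR's legacy quasi-likelihood method, in R 4.3.3. The tests were also run on simulated counts. These gave all groups the same spread, unlike the control sgRNA replicates here, and held changes larger than most described above. No support for the calls is drawn from them. The samples were independently repeated. The number of 2 libraries a group limits the precision, and a count of 3 was the floor.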

Additional observations from a re-analysis of the deposited data

How the results depend on the processing

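With limma, DESeq2, RLE factors, no filter on low counts, no annotation filter and the legacy method, all 25 individually tested genes kept their direction and their side of the threshold, as did 24 of 24 left at a mean CPM of at least 5. Under library size only, Ebf1 changed sign (0.014), and the median of all genes moved from 0.0028 to 0.044. Over the omissions its log2 fold change ran from -0.18 to 0.13, and it changed sign without wild-type replicate 2 (0.0062), control sgRNA replicate 1 (0.13) and Cd4 sgRNA replicate 2 (0.0027).

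Same-numbered samples did not deviate together, with correlations of replicate differences of 0.0044 and 0.053 for wild-type with control and with Cd4 sgRNA. Between the sgRNA groups the correlation was -0.22. The labels do not say whether same-numbered samples were prepared together, and these values cannot exclude it. With the replicate block 4 genes were called higher and 15 lower in TETact-v3 against wild-type, and Cr2 (adjusted p = 0.051) and Pou2f2 (0.052) were not called.

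Between Cd4 sgRNA and control sgRNA cells DESeq2 called 7 higher and 3 lower. With only the groups compared, 2 were higher and 8 lower with the control sgRNA, and 7 and 29 with the Cd4 sgRNA, against wild-type, where those fits called 6.62% and 5.82%, and 31.2% and 30.5%, of all genes.

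Leaving out each library in turn, the numbers called higher and lower ran from 1 to 9 and from 1 to 29 in TETact-v3, from 0 to 14 and from 0 to 26 in control sgRNA and from 1 to 8 and from 0 to 29 in Cd4 sgRNA cells against wild-type, and from 0 to 10 and from 0 to 26 between the sgRNAs. Calls over all genes moved with these numbers. The median log2 fold change with the control sgRNA ran from -0.41 to -0.15. With 2 libraries a group, the calls rest on a spread shared by all groups, and the control sgRNA replicates differed most.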
